A study of Aspergillus niger with 9 samples.

Results

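Deletion of aslA in the filamentous fungus Aspergillus niger was compared with its background strain MA234.1 across all genes, using the 3 libraries of each strain, 6 of the 9 libraries in the series. The other 3 come from ΔaslB, a second deletion strain in the same background, and were not used here. The series concerns transcription factors under FlbA, which in Aspergillus nidulans regulates G protein signalling and takes part in conidiation and vegetative growth. RNA came from mycelium of shaken liquid cultures, in biological triplicate, and was sequenced as stranded poly(A) libraries. Per the labels' protocols, cultures were grown for 16 h on a rich glucose medium (TM-G, with casamino acids at 0.2%, yeast extract at 0.5% and glucose at 25 mM) and for 4 h on a xylose medium (MM-X, with xylose at 25 mM). Which of these cultures a library came from is not in the labels, and if the strains were taken from different cultures, culture and genotype cannot be told apart. MA234.1 carries no genotype in the labels ("n.a."), and ΔaslA is labelled as an aslA knockout of that strain; the sources used here do not say how many independent transformants the 3 cultures represent. No gene in the annotation used was named aslA, so the deletion itself was not checked by name.

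Filamentous ascomycetes such as A. niger adjust their transcripts closely to the carbon source. On a preferred sugar, fungi express the machinery of translation and growth at a high level, and the repressor CreA holds back genes for other carbon sources. On acetate, fatty acids, amino acids or plant polymers they use the glyoxylate cycle, gluconeogenesis, peroxisomal β-oxidation, secreted hydrolases and a large family of sugar transporters, under activators such as XlnR for xylan, AraR for arabinan and PrtT for extracellular proteases.

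Library totals were 11321882, 13493729 and 13177156 counts for MA234.1 replicates 1 to 3, and 13954909, 19110786 and 13274592 for ΔaslA. Across genes, log2 CPM correlated at r = 0.986 to 0.992 within MA234.1, at 0.971 to 0.992 within ΔaslA and at 0.720 to 0.749 between the strains, where genes are not independent replicates. CPM are the counts of a gene per 1e6 counts of its library, after TMM scaling. ΔaslA replicate 2 stood apart from the other two ΔaslA libraries: 505 genes were at least 2-fold above both of them and 257 at least 2-fold below both, against 21 to 116 genes for any of the other 5 libraries. Without this library 7366 genes were called, against 6505 with it. Of the vegetative markers, tef1 and gpdA were matched by name, with deposited FPKM ranks of 91 and 4 in MA234.1 and 3 and 17 in ΔaslA. Of 22 conidia and conidiophore markers, 14 were tested, with 2 called higher (14.3%) and 7 called lower (50%) in ΔaslA. The shares over all genes were 34.4% and 34.9%. Their summed share of counts was 0.0171% to 0.0185% in MA234.1 and 0.0126% to 0.0141% in ΔaslA, and the 2 spore-wall hydrophobin genes named dewA were too low to be tested. The part of these markers in the results below was not tested.

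The transcriptomes of the strains differed in most genes. Of 9382 genes tested, 6505 (69.3%) were called at a Benjamini-Hochberg adjusted p under 0.05 in edgeR's quasi-likelihood test, 3232 (34.4%) higher and 3273 (34.9%) lower in ΔaslA, and for 7063 genes (75.3%) there was no overlap between the strains' libraries. TMM scaling centres the fold changes of the bulk of genes near 0, so the even numbers are not by themselves a result about the strains. The sizes were not even: 764 genes (8.14%) were higher and 1340 (14.3%) lower by at least 2 on the log2 scale. By at least 4 the numbers were 91 against 506, and by at least 6 they were 1 against 180. When genes were put in 4 equal classes by mean expression, 316 were higher and 966 lower in the lowest class, and 1023 were higher and 807 lower in the highest. The mean was at least 5 CPM in MA234.1 and under 1 CPM in ΔaslA for 232 genes, 16 of them annotated as transcription factors, and the reverse held for 13 genes, 0 of them transcription factors. In bulk mycelium, fewer cells of a type and less RNA per cell cannot be told apart.

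**Figure D1:**
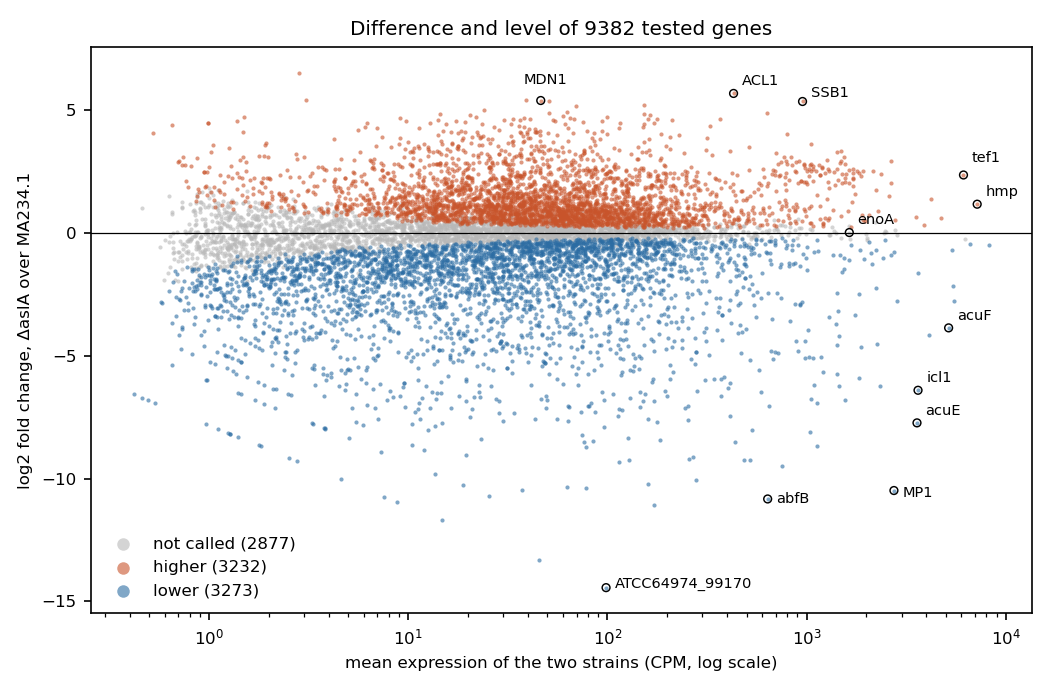
Each point is 1 of 9382 tested genes; the horizontal axis is the mean of the 2 strain means in CPM on a log scale, and the vertical axis is the log2 fold change of ΔaslA over MA234.1. Orange genes were called higher (3232), blue genes lower (3273) and grey genes not called (2877); called losses reach -14.44, called gains 6.51.

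The most abundant transcripts changed as well. In the authors' deposited FPKM values, which give 1 value per strain and are scaled by gene length, the 20 highest genes of each strain had 7 in common, and the 100 highest had 31. The glyoxylate cycle genes icl1 and acuE ranked 11 and 12 in MA234.1 and 2607 and 4583 in ΔaslA, and the cell wall mannoprotein gene MP1 fell in rank from 5 to 6764. In the other direction tef1, the gene of translation elongation factor 1-alpha, moved from rank 91 to 3, atp9 of the mitochondrial ATP synthase from 118 to 4 and the ribosomal protein gene crp-74 from 167 to 5. The first rank in ΔaslA was held by ATCC64974_67810, a gene with no protein name, at 13226 FPKM against 4889 in MA234.1.

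**Figure D2:**
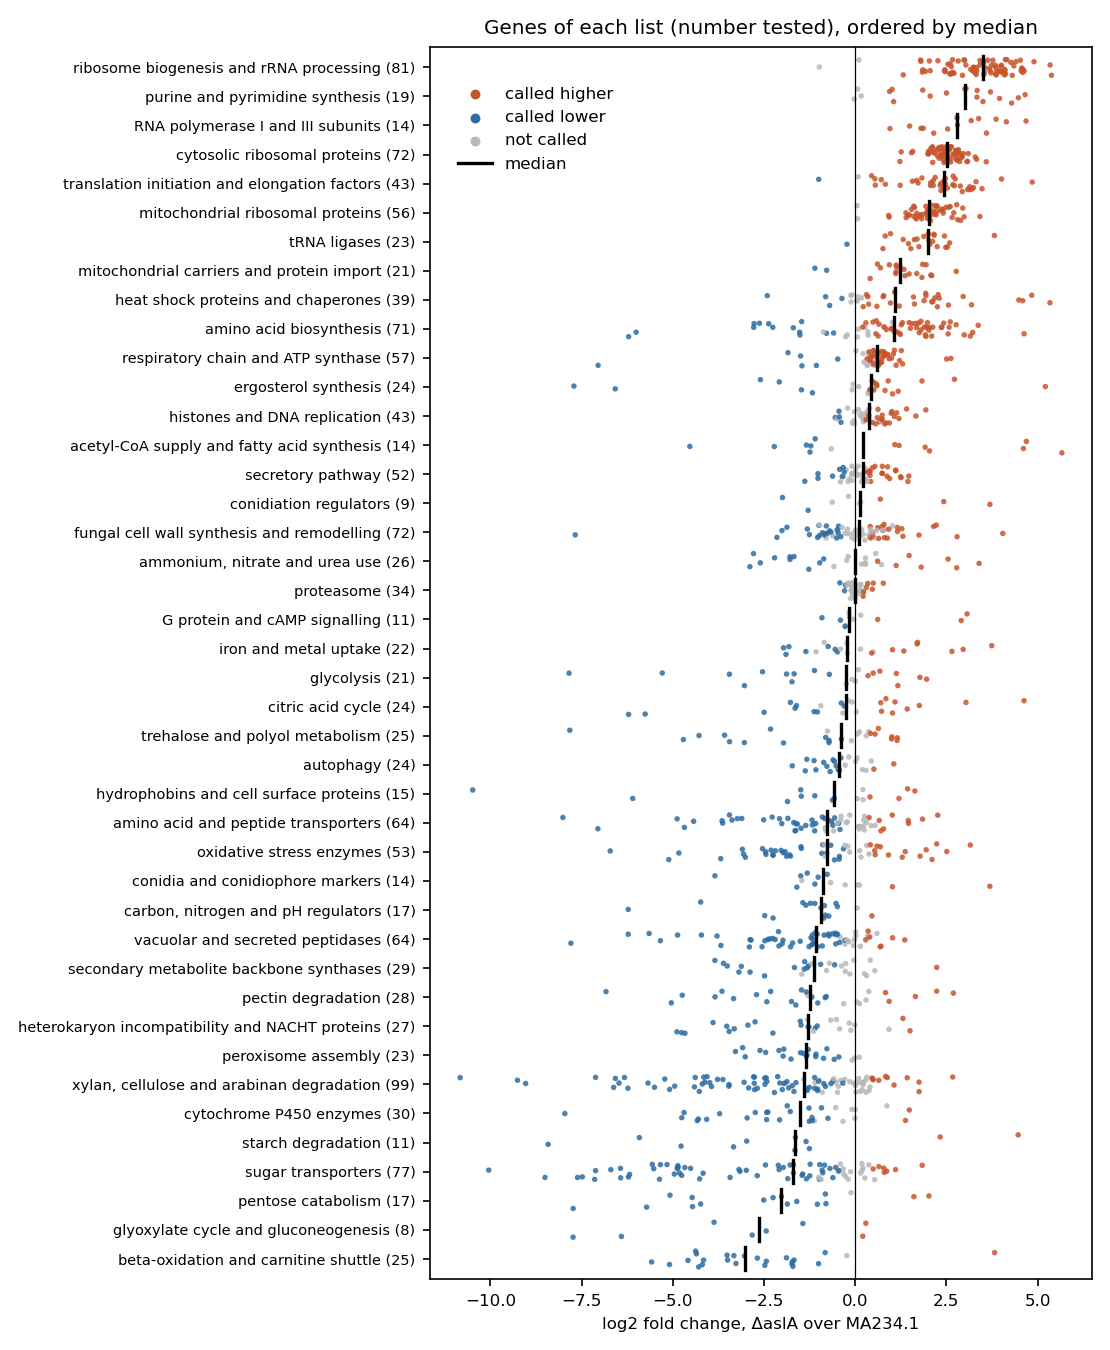
Each point is a tested gene of 1 of 42 gene lists, placed by its log2 fold change of ΔaslA over MA234.1; lists are ordered by their median (black bar), with the number of genes tested in parentheses. Lists of ribosome assembly, nucleotide synthesis and translation lie at the top with medians of 2.01 to 3.51, and lists of β-oxidation, the glyoxylate cycle and pentose catabolism at the bottom with medians of -3.03 to -2.02.

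Genes of the cytosolic ribosome rose as a body. All 72 tested genes of cytosolic ribosomal proteins were called higher, against 34.4% of all genes, with a median log2 fold change of 2.51 against 0.01 over all genes, and a range of 1.23 to 3.59. Together they held 2.83%, 2.66% and 2.69% of the counts in MA234.1 replicates 1 to 3, and 15.2%, 13.7% and 15.3% in ΔaslA. The gene with the largest fold was rps0 (40S protein S0), at 162, 155 and 165 CPM in MA234.1 and 1794, 2268 and 1768 CPM in ΔaslA replicates 1 to 3 (log2 change 3.59 with SE 0.13, adjusted p = 1.07e-07 by edgeR). The stalk protein gene p0 stood at 284, 262 and 267 CPM in MA234.1 and at 2778, 2639 and 2749 CPM in ΔaslA (log2 change 3.33 with SE 0.09, adjusted p = 2.79e-08 by edgeR). Every ΔaslA library lay above every MA234.1 library for both genes, and for all 72 genes of the list.

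Nearly all genes of factors that build ribosomes rose. Of 81 genes of ribosome biogenesis and rRNA processing, 79 rose and 0 fell, against 34.4% and 34.9% of all genes, with a median of 3.51. MDN1, closest to yeast midasin, an ATPase that remodels the large subunit before export, stood at 1.53, 3.15 and 1.73 CPM in MA234.1 and at 91.3, 92.0 and 88.0 CPM in ΔaslA (log2 change 5.38 with SE 0.24, adjusted p = 3.6e-07 by edgeR). The nucleolar helicase gene has1 rose from 2.43 ± 0.851 to 99.9 ± 9.54 CPM (SD, n = 3 each, as in all values written this way), and EBP2, an rRNA-processing gene named from yeast, from 4.09 ± 1.09 to 122 ± 35.2 CPM. All 14 subunit genes of RNA polymerases I and III, which transcribe rRNA and tRNA genes, rose (median 2.80), the largest being rpa43, at 2.07, 2.93 and 3.54 CPM against 54.1, 116 and 51.7 CPM. For rpa43, replicate 2 stood above the other two ΔaslA libraries, and all 3 lay above MA234.1. ATCC64974_47940, which has no protein name but carries the Pfam domain of the polymerase I subunit A34, rose from 1.43 ± 0.66 to 46.6 ± 3.52 CPM. It had the largest fold among the rises of genes without a protein name that reached 5 CPM.

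Translation factors and tRNA charging followed. Of 43 initiation and elongation factor genes 41 rose and 1 fell (median 2.43), and of 23 tested tRNA ligase genes 22 rose and 1 fell (median 2.01). Over all genes 34.4% rose and 34.9% fell. The gene of the initiation helicase eIF4A, tif1, stood at 44.7, 38.3 and 44.1 CPM in MA234.1 and 1340.3, 1007 and 1328 CPM in ΔaslA (log2 change 4.85 with SE 0.15, adjusted p = 6.42e-08 by edgeR). Elongation factor 3, TEF3, a fungal factor named here from Candida glabrata, rose from 93.1 ± 4.89 to 1502 ± 142 CPM, and tef1 from 2013 ± 45.3 to 10266 ± 1889 CPM, the largest gain in CPM of any gene. Among tRNA ligases the largest fold was that of TRL1 (3.82), which in yeast joins tRNA pieces after splicing and does not charge tRNA. The tyrosine and leucine charging enzymes TYS1 and leu-6 changed by 2.59 and 2.53.

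Most chaperone genes rose. Of 39 heat shock protein and chaperone genes, 28 rose and 4 fell (median 1.08). The largest rises were those of SSB1, SSZ1 and zuo1, whose products in yeast bind the ribosome and receive the nascent chain. SSB1 stood at 46.4, 44.9 and 46.7 CPM in MA234.1 and at 2131, 1352 and 2109 CPM in ΔaslA (log2 change 5.34 with SE 0.20, adjusted p = 1.6e-07 by edgeR). SSZ1 rose from 10.2 ± 2.38 to 294 ± 1.3 CPM and zuo1 from 16.8 ± 3.0 to 404 ± 58.4 CPM. The libraries did not overlap in any of the 3 genes, and ΔaslA replicate 2 was the lowest ΔaslA library for SSB1 and the highest for zuo1. The cytosolic chaperone gene hsp90 (ATCC64974_7790) was not called, at 2420.4 ± 36.9 against 2510.0 ± 407 CPM (log2 fold change 0.05, edgeR adjusted p = 0.725). Without ΔaslA replicate 2 it was called higher, with a log2 change of 0.20. Among folding genes of the endoplasmic reticulum, bipA, pdiA and the calnexin homolog AFUA_4G12850 fell by 1.02, 1.02 and 1.38 on the log2 scale. The full secretory list had 20 of 52 genes higher (38.5%) and 8 lower (15.4%), against 34.4% and 34.9% of all genes. Its median was 0.20, and 3 were higher and 1 lower when a fold above 2 was tested.

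Synthesis of nucleotides and amino acids was higher in most genes. Of 19 purine and pyrimidine synthesis genes 16 rose (84.2%) and 0 fell, against 34.4% and 34.9% of all genes (median 3.01). ADE1, a purine pathway gene named from Yarrowia lipolytica, rose from 4.99 ± 1.84 to 125 ± 3.51 CPM. Adsl (adenylosuccinate lyase, named from mouse) rose from 9.91 ± 1.26 to 221 ± 6.53 CPM and gua1 (GMP synthase) from 14.8 ± 1.51 to 289 ± 36.9 CPM. Of 71 amino acid biosynthesis genes 48 rose (67.6%) and 13 fell (18.3%), with a median of 1.06. The homocitrate synthase gene lys1, at the entry to lysine synthesis, stood at 11.2, 15.6 and 14.4 CPM in MA234.1 and 355, 303 and 364 CPM in ΔaslA (log2 change 4.63 with SE 0.16, adjusted p = 8.69e-08 by edgeR). Copies of 1 enzyme went opposite ways: of the 2 genes of 3-isopropylmalate dehydrogenase in leucine synthesis, leu2B fell from 81.4 ± 2.63 to 1.07 ± 0.489 CPM and leu2A rose from 94.1 ± 6.5 to 191 ± 60.8 CPM. Among the largest falls was metX, closest to an archaeal homoserine O-acetyltransferase, from 610.3 ± 12.9 to 9.46 ± 1.51 CPM. Of 43 histone and DNA replication genes 22 rose (51.2%), 4 fell (9.3%) and 17 were not called, against 34.4% higher and 34.9% lower of all genes. Their median was 0.37, and 3 rose and 0 fell when a fold above 2 was tested. The largest folds were in origin recognition genes named from fission yeast, orc6 (1.94) and orc1 (1.66).

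Most genes in the lists of mitochondrial translation, protein import and respiration rose. Of 56 mitochondrial ribosomal protein genes 54 rose and 0 fell, against 34.4% and 34.9% of all genes (median 2.03). MRP7, named from yeast and second in the list by fold, stood at 31.4, 27.9 and 35.6 CPM in MA234.1 and at 182, 401 and 169.5 CPM in ΔaslA replicates 1 to 3 (log2 change 2.99 with SE 0.34, adjusted p = 8.23e-05 by edgeR), with replicate 2 above the other two. Protein import and carrier genes rose in 19 of 21 cases and fell in 2 (median 1.23), among them tim44 (2.77) and the ADP,ATP carrier gene aac, from 2349 ± 96.9 to 6068 ± 136 CPM. In the respiratory chain list 43 of 57 genes rose and 6 fell (median 0.59), or 5 and 4 when a fold above 2 was tested. By complex, 21 of 25 tested genes rose and 0 fell in the complex I class. That class was matched by name and includes NDH2, an alternative enzyme that is not a complex I subunit. In complex III 6 of 6 genes rose, in complex IV 4 of 5 and in the ATP synthase 12 of 14. All 5 genes of complex II, the succinate dehydrogenase that also serves the citric acid cycle, fell, by 0.48 to 1.84 on the log2 scale. atp9, the ring subunit of the ATP synthase, stood at 678, 622 and 649 CPM in MA234.1 and 3418, 4195 and 3448 CPM in ΔaslA (log2 change 2.51 with SE 0.11, adjusted p = 3.68e-07 by edgeR). NDH2, an alternative NADH dehydrogenase named from Yarrowia, rose from 42.3 ± 2.94 to 261 ± 44.1 CPM. The sixth gene of the list that fell, AOX1, is closest to an alcohol oxidase of methylotrophic yeast and was matched by its symbol; it is not a respiratory subunit (158 ± 5.8 against 1.19 ± 0.0517 CPM).

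Of 21 glycolysis genes 7 rose (33.3%) and 10 fell (47.6%), with a median of -0.24, against 34.4% and 34.9% of all genes. The genes gpdA, pgkA, tpiA and enoA were not called. enoA (ATCC64974_106860) stood at 1659.9, 1626 and 1617 CPM in MA234.1 and 1809, 1302 and 1823 CPM in ΔaslA (log2 change 0.01 with SE 0.13, adjusted p = 0.956 by edgeR), and it was called higher without ΔaslA replicate 2 (log2 change 0.17). gpdA stood at 6782 ± 82.8 against 5739 ± 1280.1 CPM (edgeR adjusted p = 0.211). Genes of sugar phosphorylation differed in direction. glkA (glucokinase) rose from 144 ± 8.12 to 492 ± 59.7 CPM and pfkA (phosphofructokinase) from 547 ± 43.0 to 1231 ± 61.4 CPM. Of the 4 tested genes with the hexokinase symbol hxkA, 3 fell (ATCC64974_23890, -2.54; ATCC64974_28210, -1.67; ATCC64974_72740, -1.73) and ATCC64974_51280 rose from 76.3 ± 4.59 to 296 ± 21.0 CPM. FBP1, the gluconeogenic fructose-1,6-bisphosphatase, fell from 2392 ± 86.7 to 441 ± 83.8 CPM. The largest falls in the glycolysis list, -7.84 and -5.29, were those of 2 putative aldolase genes (ATCC64974_42530 and ATCC64974_3760), of which the first sits in a run of neighbouring genes described below.

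The text match of the citric acid cycle list also took in lysine and leucine genes and mcsA of the methylcitrate cycle, which fell. The list had 9 of 24 genes higher (37.5%) and 10 lower (41.7%), again near the shares over all genes, with a median of -0.25. Without MA234.1 replicate 1 the counts were 10 and 9, and without MA234.1 replicate 3 they were 9 and 8. The NADP-dependent isocitrate dehydrogenase gene icdA stood at 3159, 3073 and 3087 CPM in MA234.1 and 556, 535 and 559.8 CPM in ΔaslA (log2 change -2.50 with SE 0.08, adjusted p = 7.98e-08 by edgeR). Both subunit genes of the NAD-dependent enzyme of the cycle moved the other way, IDH1 from 479 ± 13.2 to 1020.2 ± 239.7 CPM and idh2 from 271 ± 13.5 to 729.7 ± 53.6 CPM. Glutamate dehydrogenases also moved in opposite directions. The NADP-dependent gene GDH, of the ammonium-assimilating type, rose from 35.9 ± 3.91 to 378 ± 57.5 CPM. For the NAD-dependent gene gdh-1, which in Neurospora breaks glutamate down, the libraries were 9363, 9861 and 9742 CPM in MA234.1 and 1488, 1184 and 1522 CPM in ΔaslA, without overlap (log2 change -2.79 with SE 0.12, adjusted p = 3.24e-07 by edgeR).

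Genes of acetyl-CoA supply were called in both directions. Of 14 tested genes of acetyl-CoA supply and fatty acid synthesis 7 rose (50%) and 6 fell (42.9%), against 34.4% and 34.9% of all genes (median 0.22). ATP-citrate synthase makes cytosolic acetyl-CoA from citrate. Its gene ACL1 (contig 16, 191968 to 194156) had 17.2, 16.0 and 16.6 CPM in MA234.1 and 905, 732 and 894 CPM in ΔaslA (log2 change 5.67 with SE 0.13, adjusted p = 1.59e-08 by edgeR). Its neighbour SPAC22A12.16 (ATCC64974_87440), named from the second subunit in fission yeast, had 30.8, 28.3 and 27.9 CPM and 719, 675 and 733 CPM (log2 change 4.61 with SE 0.10, adjusted p = 1.31e-08 by edgeR). The strains did not overlap in either gene, and ΔaslA replicate 2 was the lowest of its group in both. facA, the acetyl-CoA synthetase that activates acetate, went the other way, from 4355 ± 56.1 to 188 ± 32.5 CPM (log2 change -4.53 with SE 0.15, adjusted p = 8.42e-08 by edgeR). The acetyl-CoA carboxylase gene cut6, named from fission yeast, rose from 223 ± 13.4 to 513 ± 109.8 CPM. The neighbouring fatty acid synthase genes fasA (ATCC64974_23430) and FAS1 (ATCC64974_23440) rose from 265 ± 21.6 to 1000.4 ± 286 CPM and from 227 ± 20.2 to 930.4 ± 278 CPM. In this last pair replicate 2 of ΔaslA was the lowest of the 3, at 671 and 609.7 CPM, above every MA234.1 library. Of 24 ergosterol synthesis genes 14 rose (58.3%) and 6 fell (25%), with a median of 0.43, or 3 and 5 when a fold above 2 was tested. ERG13, hydroxymethylglutaryl-CoA synthase near the start of the pathway, rose from 8.0 ± 1.85 to 299 ± 51.3 CPM and the squalene monooxygenase gene erg1 from 51.0 ± 4.52 to 337 ± 12.4 CPM.

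Most genes for the use of acetate, fatty acids and propionate fell. In the list of the glyoxylate cycle and gluconeogenesis 6 of 8 genes fell, against 34.9% of all genes, and its 2 risers were LEU4 genes of leucine synthesis taken in by their text. The list held 2.93%, 2.87% and 2.82% of counts in MA234.1 replicates 1 to 3 and 0.221%, 0.198% and 0.224% in ΔaslA. The malate synthase gene acuE had 7439, 7103 and 6878 CPM in MA234.1 and 30.1, 37.4 and 32.9 CPM in ΔaslA (log2 change -7.73 with SE 0.14, adjusted p = 1.01e-08 by edgeR). For the isocitrate lyase gene icl1 the values were 7514, 7046 and 6966 CPM and 85.4, 81.3 and 86.7 CPM (log2 change -6.41 with SE 0.11, adjusted p = 9.95e-09 by edgeR). acuF, phosphoenolpyruvate carboxykinase, had 9907, 9592 and 9536 CPM against 667, 613 and 707 CPM (log2 change -3.87 with SE 0.10, adjusted p = 2.68e-08 by edgeR) and was the largest loss in CPM of any gene. None of these genes overlapped between strains, and the spread within ΔaslA was small beside the fall.

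Propionyl-CoA is burned through the methylcitrate cycle, and both of its genes named here fell: mcsA, 2-methylcitrate synthase, from 2785 ± 236 to 51.4 ± 5.43 CPM and mclA, methylisocitrate lyase, from 1672 ± 91.8 to 236 ± 48.2 CPM. Of 25 tested genes of β-oxidation and the carnitine shuttle 23 fell and 1 rose, against 34.9% and 34.4% of all genes (median -3.03). YAT1, which in yeast moves acetyl units across membranes on carnitine, fell from 1131 ± 20.6 to 23.7 ± 3.47 CPM. The enoyl-CoA hydratase gene mfeB, named from Dictyostelium, fell from 268 ± 8.03 to 7.9 ± 1.05 CPM, and Acad11, an acyl-CoA dehydrogenase gene named from rat, from 294 ± 14.2 to 12.2 ± 2.48 CPM. Of 23 peroxisome assembly genes 20 fell and 0 rose (median -1.34). The largest falls were in 3 genes closest to the yeast peroxisomal protein LPX1, ATCC64974_93140, ATCC64974_43490 and ATCC64974_17230, at -3.28, -3.09 and -3.02. The acetyl-CoA hydrolase gene acu-8 and the formate dehydrogenase gene aciA, among the 10 largest losses in CPM, fell by 2.77 and 2.16 on the log2 scale, from 4955 ± 92.6 to 728 ± 75.5 and from 8908 ± 305 to 1994 ± 410.5 CPM.

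**Figure D3:**
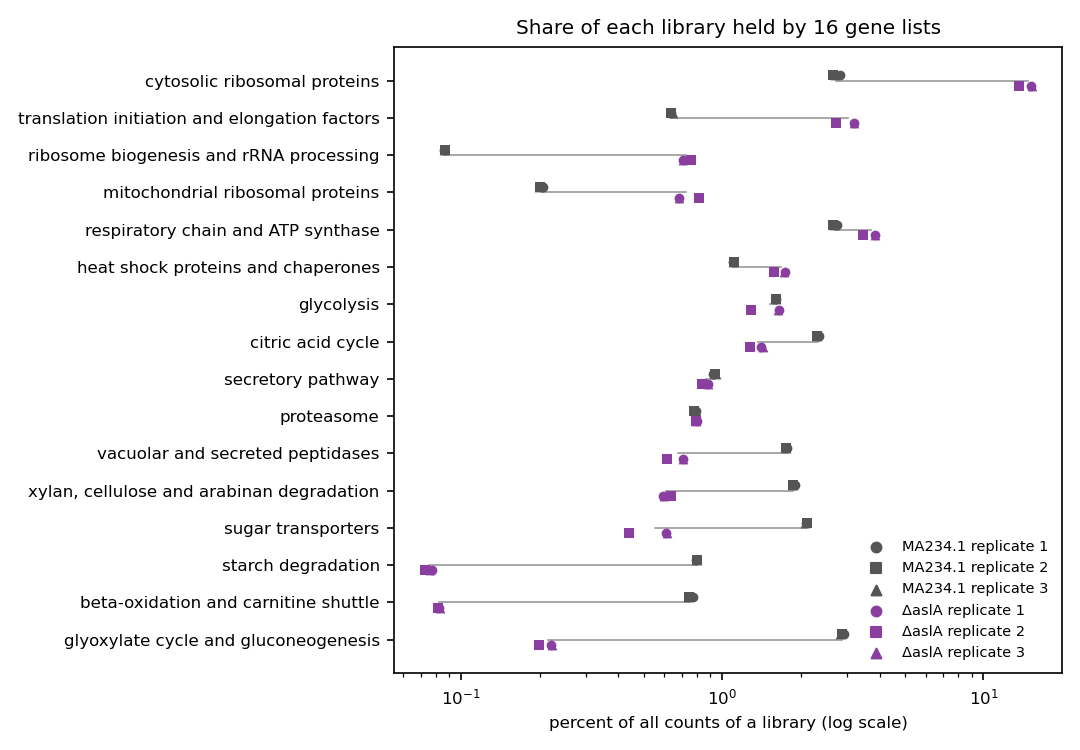
Each symbol is 1 library; the horizontal axis is the percent of all counts of that library held by a gene list, on a log scale, for 16 lists, with grey for MA234.1 and purple for ΔaslA and a line joining the strain means. Cytosolic ribosomal proteins moved from 2.73% to 14.7% of counts and the glyoxylate and gluconeogenesis list from 2.87% to 0.214%, while the proteasome list stayed at 0.789% and 0.796%.

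Among enzymes that act on polymers of sugars, more genes were lower than higher. Of 404 tested carbohydrate-active enzyme genes 213 were lower (52.7%) and 77 higher (19.1%), against 34.9% and 34.4% of all genes. Of 204 glycoside hydrolases 122 were lower (59.8%) and 32 higher (15.7%), with a median of -1.03. All 7 genes of family GH31 and 13 of 17 of family GH3 fell, with 0 higher in either. In family GH16, which acts on fungal and plant glucans, 5 of 13 rose (38.5%), near the 34.4% of all genes, and 2 fell (15.4%). In the list for xylan, cellulose and arabinan 61 of 99 genes fell and 11 rose (median -1.41). The arabinofuranosidase gene abfB (contig 4, 1301755 to 1303255) had 1354, 1236 and 1237 CPM in MA234.1 and 1.08, 0.567 and 0.456 CPM in ΔaslA (log2 change -10.83 with SE 0.22, adjusted p = 1.31e-08 by edgeR). lacA, a secreted β-galactosidase, had 960.0, 979 and 955 CPM against 1.16, 2.22 and 1.14 CPM (log2 change -9.26 with SE 0.23, adjusted p = 2.04e-08 by edgeR). The β-glucosidase gene bglA had 4833, 4498 and 4515 CPM against 70.1, 42.0 and 72.6 CPM (log2 change -6.23 with SE 0.24, adjusted p = 1.61e-07 by edgeR). In each of these genes the highest ΔaslA library was far under the lowest MA234.1 library. Of 28 pectin degradation genes 17 fell and 5 rose (median -1.24), with exopolygalacturonases, which trim polygalacturonan from its ends, among the larger falls. pgxB fell from 56.8 ± 4.26 to 0.47 ± 0.173 CPM, pgaX from 69.5 ± 2.22 to 2.57 ± 0.457 CPM and pgxC from 21.1 ± 0.698 to 1.5 ± 0.748 CPM.

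Most starch and pentose genes fell. Of 11 starch degradation genes 9 fell and 2 rose, against 34.9% and 34.4% of all genes (median -1.65). Glucoamylase, GLAA, which releases glucose from starch, had 3651, 3612 and 3592 CPM in MA234.1 and 67.4, 52.7 and 59.7 CPM in ΔaslA (log2 change -5.92 with SE 0.13, adjusted p = 1.31e-08 by edgeR). The acid α-amylase gene ATCC64974_89550 fell from 367 ± 17.8 to 1.09 ± 0.437 CPM. The α-amylase gene amyS (ATCC64974_10490) rose from 12 ± 2.58 to 60.5 ± 19.6 CPM, with ΔaslA replicate 2 the highest at 83.0 CPM. Its closest named protein is a Bacillus amylase. The second starch gene called higher, one of 3 tested genes with the symbol amy3 (ATCC64974_26800), had 0, 0.22 and 0 CPM in MA234.1, at or under the floor of 3 counts in every library, and 1.73, 2.32 and 1.67 CPM in ΔaslA. Of 17 tested genes of pentose catabolism 14 fell and 2 rose (median -2.02), yet the list held 0.127% of counts in MA234.1 and 0.139% in ΔaslA. The genes that fell include those matched to the regulators xlnR and araR, which are counted again among the carbon, nitrogen and pH regulators. One member, the L-xylulose reductase gene lxr3, rose from 252 ± 6.47 to 1022 ± 22.8 CPM. The 2 largest folds in the list were those of the L-arabinitol dehydrogenase genes ladA (ATCC64974_3080), from 29.5 ± 3.06 to 0.133 ± 0.0264 CPM, and lad1, from 9.43 ± 0.266 to 0.159 ± 0.0917 CPM. The xylitol-oxidising gene xdhA (ATCC64974_29270) fell from 12.9 ± 2.83 to 0.396 ± 0.218 CPM.

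Sugar transporter genes fell in 53 of 77 cases (68.8%) and rose in 7 (9.1%), against 34.9% and 34.4% of all genes (median -1.69). rco-3, closest to a glucose transporter of Neurospora that acts in glucose sensing, had 7745, 7824 and 7739.9 CPM in MA234.1 and 511, 292 and 493 CPM in ΔaslA (log2 change -4.17 with SE 0.22, adjusted p = 9.16e-07 by edgeR). qutD (ATCC64974_110460), a quinate permease gene, fell from 556 ± 34.1 to 0.516 ± 0.0612 CPM. GAL2, named from a yeast galactose transporter, fell from 153 ± 2.43 to 0.426 ± 0.159 CPM, and itr1, named from a fission yeast inositol transporter, from 504 ± 44.5 to 2.61 ± 0.501 CPM. A hexose transporter gene closest to KHT2 (ATCC64974_61760) rose, with 579.6, 564 and 567 CPM in MA234.1 and 2185, 1629 and 2298 CPM in ΔaslA (log2 change 1.84 with SE 0.14, adjusted p = 6.2e-06 by edgeR). Its libraries did not overlap, and replicate 2 was the lowest of ΔaslA.

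Peptidase and autophagy genes fell in larger numbers than they rose, while most proteasome genes were not called. Of 64 genes of vacuolar and secreted peptidases 45 fell and 7 rose (median -1.07). SCPA, a serine carboxypeptidase gene named from a dermatophyte, fell from 420.5 ± 5.51 to 8.36 ± 0.919 CPM, and fma1 (ATCC64974_14380), closest to an intracellular methionine aminopeptidase of fission yeast, from 20.9 ± 0.881 to 0.0756 ± 0.0773 CPM. Of 34 proteasome genes 24 were not called, 7 rose and 3 fell (median -0.01), the largest fold being sem-1 (0.77). These counts turned on single libraries, at 11 and 5 without ΔaslA replicate 2, 4 and 0 without ΔaslA replicate 3, 3 and 1 without MA234.1 replicate 2, and 4 and 2 without MA234.1 replicate 3. Of 24 autophagy genes 14 fell and 2 rose (median -0.45), with atg22-1 (-1.72) and atg7 (-1.33) among the largest. Amino acid and peptide transporter genes fell in 35 of 64 cases and rose in 9 (median -0.77). The peptide transporter gene ptr2 had 1082, 1039.7 and 1066 CPM in MA234.1 and 5.35, 2.78 and 4.41 CPM in ΔaslA (log2 change -8.01 with SE 0.23, adjusted p = 4.06e-08 by edgeR). DIP5, named from a yeast permease for dicarboxylic amino acids, fell from 455 ± 15.5 to 17.6 ± 5.33 CPM. In the ammonium, nitrate and urea list 7 of 26 genes rose (26.9%) and 10 fell (38.5%), against 34.4% and 34.9% of all genes (median -0.01). The nitrite reductase gene niiA rose from 8.46 ± 0.607 to 58.3 ± 3.45 CPM and its neighbour niaD (nitrate reductase) from 11.7 ± 0.951 to 41.0 ± 5.9 CPM. Another gene closest to a nitrate reductase, named from maize (ATCC64974_49500), fell from 10.2 ± 1.25 to 1.35 ± 0.359 CPM.

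Cell wall genes were called in each direction about as often as all genes. Of 72 genes of cell wall synthesis and remodelling 22 rose (30.6%) and 21 fell (29.2%), with a median of 0.10. och1 (ATCC64974_42330), closest to a mannosyltransferase that starts outer chains in fission yeast, fell from 126 ± 10.2 to 0.637 ± 0.257 CPM, and gel4, a 1,3-β-glucanosyltransferase gene that elongates wall glucan, rose from 2.0 ± 0.494 to 33.4 ± 1.15 CPM. Among 15 tested hydrophobin and surface protein genes 8 fell (53.3%) and 4 rose (26.7%), against 34.9% and 34.4% of all genes (median -0.57). The cell wall mannoprotein gene MP1 (ATCC64974_1880; contig 1, 597276 to 598143) had 5819, 5292 and 5362 CPM in MA234.1 and 3.11, 4.38 and 3.87 CPM in ΔaslA (log2 change -10.49 with SE 0.17, adjusted p = 9.95e-09 by edgeR). A second mannoprotein gene, mp1 (ATCC64974_78930), fell from 12.2 ± 1.07 to 0.146 ± 0.19 CPM. The hydrophobin gene rodA (ATCC64974_45620) fell from 12.2 ± 1.88 to 4.38 ± 1.04 CPM. Of 743 tested genes with a predicted secretion signal 364 were lower and 131 higher (median -0.55), and they held 10.4% of counts in MA234.1 and 5.43% in ΔaslA. The β-glucosidase gene btgE, named from Aspergillus oryzae, showed almost no difference, at 2547, 2366 and 2464 CPM in MA234.1 and 2276, 2774 and 2328 CPM in ΔaslA (log2 change 0.00 with SE 0.10, adjusted p = 0.997 by edgeR), the closest to 0 of all genes averaging at least 500 CPM.

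Regulators of carbon, nitrogen and pH response fell in 15 of 17 tested genes (88.2%), against 34.9% of all genes, or in 6 when a fold above 2 was tested. Several of those that fell share a closest name, xlnR or prtT, so the count is of genes and not of distinct regulators. The gene hacA of the unfolded protein response was not called (703 ± 15.1 against 729 ± 3.55 CPM), and SNF1, named from the yeast kinase that relieves glucose repression, rose from 90.6 ± 3.75 to 124 ± 9.07 CPM. The xylanase activator gene xlnR of A. niger (ATCC64974_28320) had 167, 163 and 152 CPM in MA234.1 and 34.9, 30.5 and 35.9 CPM in ΔaslA (log2 change -2.25 with SE 0.10, adjusted p = 4.32e-07 by edgeR). The protease activator gene prtT of A. niger (ATCC64974_81730) had 318, 313 and 319 CPM and 57.2, 62.0 and 51.0 CPM (log2 change -2.48 with SE 0.10, adjusted p = 2.12e-07 by edgeR). A second gene closest to prtT (ATCC64974_29590) had 54.5, 49.5 and 49.8 CPM and 0.434, 0.979 and 0.532 CPM (log2 change -6.22 with SE 0.26, adjusted p = 2.37e-07 by edgeR). None of the 3 overlapped between strains. The repressor gene creA fell from 302 ± 9.65 to 129 ± 38.6 CPM, with ΔaslA replicate 2 at 173 CPM above the other two. The pH regulator gene PACC fell from 1174 ± 52.1 to 460.0 ± 33.1 CPM, acuK, an activator of gluconeogenesis, from 156 ± 5.19 to 57.5 ± 11.2 CPM, and the general amino acid control gene cpcA from 1416 ± 39.4 to 858 ± 22.1 CPM. Changes in areA (-0.86), araR (-0.82), creB (-0.84), creC (-0.94) and nmrA (-0.52) were under 1 on the log2 scale. Further genes closest to xlnR (ATCC64974_91960, -4.24) and prtT (ATCC64974_55510, -1.11, and ATCC64974_95150, -0.49) also fell, and which copy acts as the regulator was not tested. The call of nmrA (ATCC64974_9180) was lost without MA234.1 replicate 1 or 2, or without ΔaslA replicate 1 or 3, at log2 changes of -0.43, -0.55, -0.44 and -0.40.

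Counts of developmental and G protein regulators called in each direction were near or below the shares over all genes (34.4% higher and 34.9% lower). Of 9 conidiation regulators 3 rose (33.3%), 2 fell (22.2%) and 4 were not called, flbA among the last at 19.4, 23.6 and 22.2 CPM in MA234.1 and 24.1, 20.9 and 27.6 CPM in ΔaslA (log2 change 0.15 with SE 0.16, adjusted p = 0.414 by edgeR). abaA, which acts late in conidiophore development, had 0.81, 1.98 and 1.43 CPM against 18, 21.2 and 16.5 CPM (log2 change 3.69 with SE 0.30, adjusted p = 1.02e-05 by edgeR). fluG, an early activator, had 55.0, 58.5 and 64.4 CPM against 315, 306 and 336 CPM (log2 change 2.43 with SE 0.10, adjusted p = 2.17e-07 by edgeR). stuA, which shapes the conidiophore in A. nidulans, had 291, 293 and 289 CPM against 72.3, 79.5 and 67.7 CPM (log2 change -1.99 with SE 0.09, adjusted p = 4.66e-07 by edgeR). A pair of genes matched brlA, the activator that starts conidiophore development. Of these ATCC64974_72370 fell from 38.3 ± 2.06 to 15.7 ± 3.73 CPM, while the other was not among the 2 genes of the list that fell. The gene wetA was not called (22.3 ± 1.61 against 24.2 ± 5.07 CPM). Among 11 tested G protein and cAMP signalling genes 3 rose and 3 fell (27.3% each). The largest rise by level was cpc-2, from 352 ± 18.3 to 2641 ± 45.0 CPM, a gene that is grouped here by its name as a G protein beta-like protein and whose product sits on the ribosome in Neurospora and yeast. The G alpha genes fadA and gna-2 fell by 0.41 and 0.91 on the log2 scale, fadA (ATCC64974_101650) without a call when MA234.1 replicate 1 or 2 was left out (log2 change -0.38 in both), and the regulatory subunit gene of protein kinase A, pkaR (ATCC64974_70150), rose by 0.62. The other tested members lie in the plot of regulator genes, among them hymA, which rose by 0.69, and a gene closest to gnr1 of fission yeast, which was under 5 CPM in both strains.

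**Figure D4:**
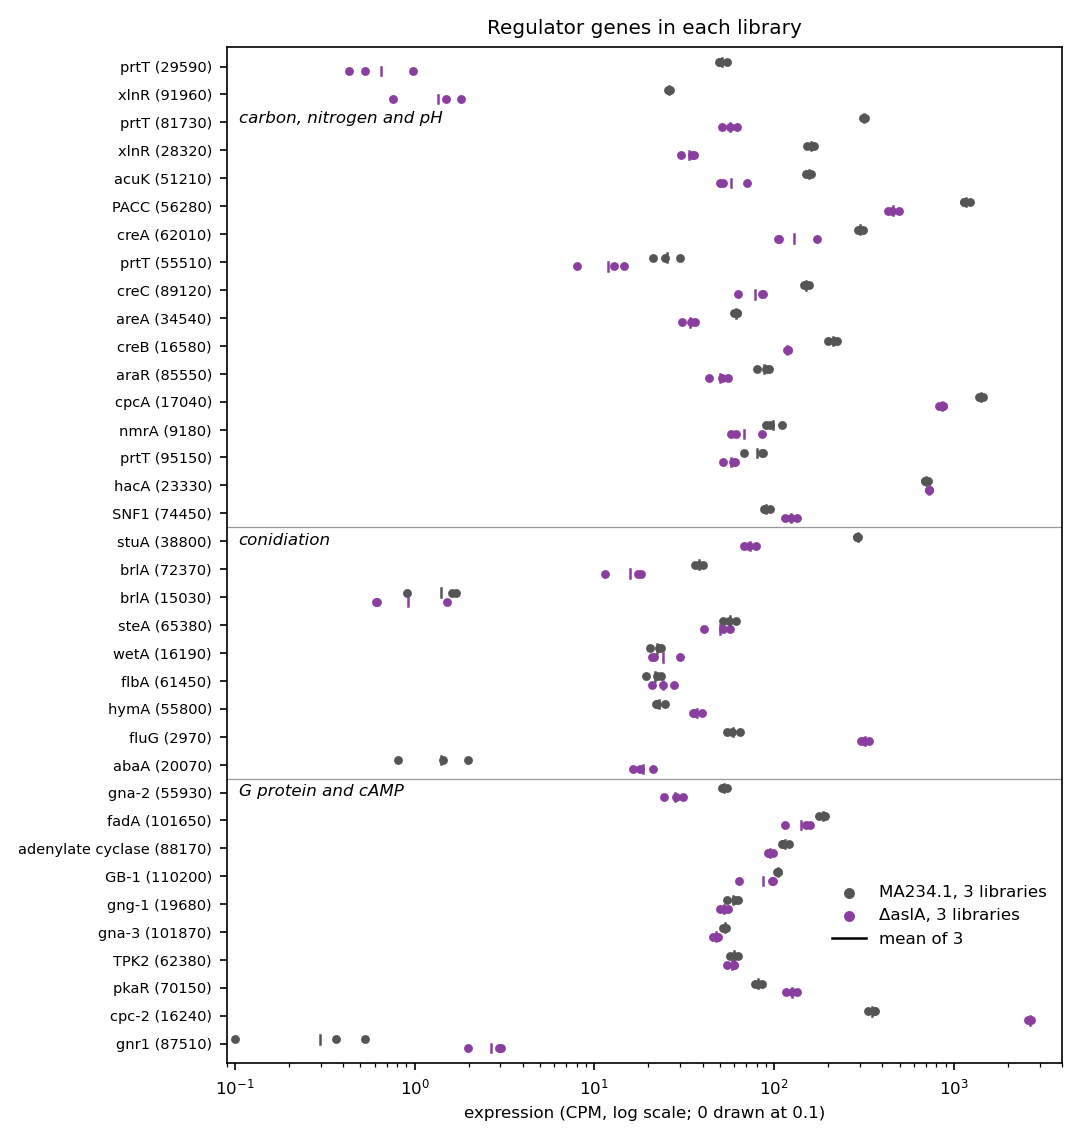
Each dot is the expression of a regulator gene in 1 library in CPM on a log scale, grey for MA234.1 and purple for ΔaslA, with a bar at the mean of 3; gene numbers in parentheses are the digits of the identifier, and a library with 0 counts is drawn at 0.1. In the upper block 15 of 17 genes lie lower in ΔaslA, while in the other blocks fluG, abaA and cpc-2 lie higher and flbA overlaps.

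Transcription factor genes fell more often than they rose: of 462 tested 222 were lower (48.1%) and 71 higher (15.4%), with a median of -0.49. Of 346 of the fungal-specific Zn2Cys6 type 190 were lower (54.9%) and 36 higher (10.4%). Over all genes the shares were 34.9% lower and 34.4% higher. Among those with at least 5 CPM in MA234.1 and under 1 CPM in ΔaslA was ATCC64974_80420, a C2H2 zinc finger gene whose closest named protein is mouse Glis3. It stood at 498, 524 and 522 CPM in MA234.1 and 0.217, 1.7 and 0.38 CPM in ΔaslA (log2 change -9.21 with SE 0.42, adjusted p = 4.32e-07 by edgeR). ATCC64974_87970, a fungal-specific factor with no protein name, had 152, 145 and 149 CPM and 0.506, 0.721 and 0.152 CPM (log2 change -8.22 with SE 0.27, adjusted p = 7.27e-08 by edgeR). A gene closest to PUT3 (ATCC64974_37070), in yeast the activator of proline use, had 39.5, 36.2 and 39.8 CPM and 0.578, 0.258 and 0.988 CPM. In each gene every ΔaslA library lay far under every MA234.1 library, but reads were still counted in all of them. The highest ΔaslA library stood at 1.7, 0.721 and 0.988 CPM, in the order given. Which of these genes, if any, is the deleted gene was not tested.

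Among stress and iron genes, neighbours could move apart. Of 53 oxidative stress enzyme genes 30 fell (56.6%) and 14 rose (26.4%), against 34.9% and 34.4% of all genes (median -0.78). The catalase-peroxidase gene katG had 1984, 1860.3 and 1887 CPM in MA234.1 and 62.4, 43.9 and 59.7 CPM in ΔaslA (log2 change -5.11 with SE 0.16, adjusted p = 5.86e-08 by edgeR). The gene next to it in identifier order, the catalase gene catR, had 28.8, 24.1 and 26.9 CPM and 131, 191 and 133 CPM (log2 change 2.51 with SE 0.17, adjusted p = 3.92e-06 by edgeR). Both enzymes break down hydrogen peroxide, and neither gene overlapped between strains. The thioredoxin gene named from cattle, TXN2, fell from 259 ± 8.88 to 2.36 ± 1.08 CPM. Of 22 tested iron and metal uptake genes 8 rose (36.4%) and 7 fell (31.8%), near the 34.4% and 34.9% of all genes (median -0.22). sidA, the first enzyme of siderophore synthesis, rose from 19.3 ± 0.832 to 149.8 ± 1.37 CPM and a siderophore transporter gene, mirB (ATCC64974_47620), from 8.87 ± 1.68 to 119 ± 2.09 CPM. The flavohemoprotein gene hmp, which detoxifies nitric oxide in bacteria and yeast, rose from 4444 ± 183 to 9942 ± 1931 CPM, highest in ΔaslA replicate 2 (12171 CPM). In the trehalose and polyol list 12 of 25 genes fell (48%) and 7 rose (28%), against 34.9% and 34.4% of all genes (median -0.38). The falls were led by genes closest to mannitol dehydrogenases, PIG8 (ATCC64974_42550, -7.82) and YALI0B16192g (ATCC64974_99860, -4.71).

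Lists of secondary metabolism and self-recognition held more lower than higher genes. Of 30 tested cytochrome P450 genes 21 fell and 2 rose (median -1.52), of 29 backbone synthase genes 14 fell, 1 rose and 14 were not called, and of 27 heterokaryon incompatibility and NACHT genes 16 fell and 2 rose (median -1.29). HET-E1 (ATCC64974_5980), closest to an incompatibility protein of Podospora, fell from 63.0 ± 5.58 to 2.16 ± 0.698 CPM, and the synthetase gene NRPS10 from 14.1 ± 1.39 to 1.16 ± 0.314 CPM. The P450 gene CYP52A12, of a family that oxidises alkanes and fatty acids in yeasts, fell from 86.3 ± 4.04 to 3.37 ± 0.912 CPM. Of 348 tested genes in the clusters of the deposited annotation of secondary metabolism 163 (46.8%) were lower and 62 (17.8%) higher, against 34.9% and 34.4% of all genes. Of its 75 clusters 33 had at least 5 genes tested; in 22 more members were lower than higher, and in 9 the reverse. The polyketide cluster 18 had 10 of 11 genes lower and 0 higher, and cluster 54 the same numbers.

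Some genes with large losses lay side by side. There were 12 runs of at least 5 neighbouring genes that were all called lower by at least 2 on the log2 scale, 72 genes in all, and 0 such runs of higher genes. One run of 6 (contig 16, 581148 to 592417) holds the route that breaks down tyrosine through homogentisate, and its summed level went from 7146 to 53.2 CPM. Its gene for 4-hydroxyphenylpyruvate dioxygenase (AFUA_2G04200) had 2289, 2233 and 2239.8 CPM in MA234.1 and 6.29, 6.18 and 3.72 CPM in ΔaslA (log2 change -8.69 with SE 0.21, adjusted p = 1.96e-08 by edgeR). hmgA, homogentisate dioxygenase, had 1283, 1274 and 1314 CPM and 9.61, 10.9 and 8.58 CPM (log2 change -7.05 with SE 0.13, adjusted p = 1.01e-08 by edgeR). fahA, fumarylacetoacetase, had 2132, 2064 and 2045 CPM and 17.4, 22.9 and 17.1 CPM (log2 change -6.76 with SE 0.15, adjusted p = 1.59e-08 by edgeR). maiA, maleylacetoacetate isomerase, fell from 319 ± 11.5 to 0.222 ± 0.265 CPM, and the gene at the edge, closest to ARO80, in yeast the activator of aromatic amino acid breakdown, from 378 ± 7.33 to 14.2 ± 1.95 CPM. All 6 genes were far lower in every ΔaslA library, and the genes next to the run on both sides were called higher.

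**Figure D5:**
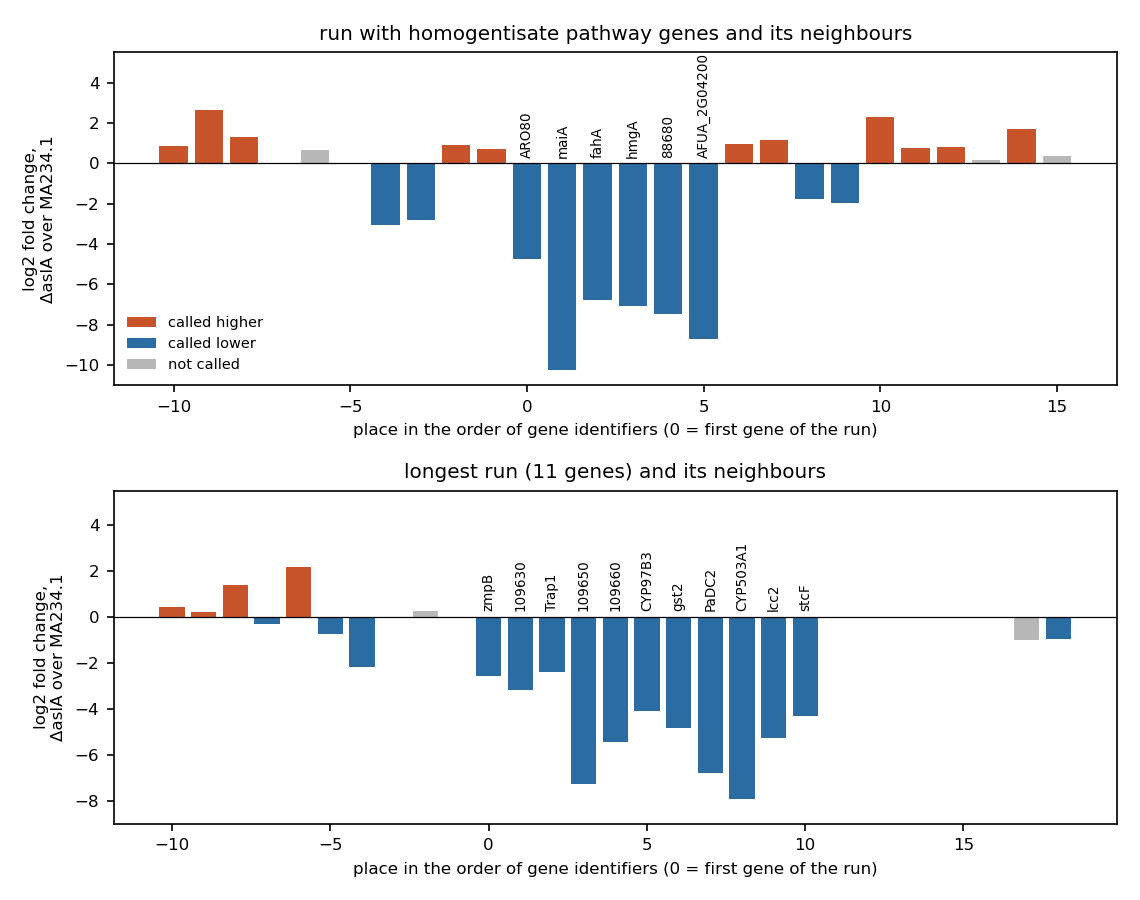
Bars give the log2 fold change of ΔaslA over MA234.1 for tested genes in the order of their identifiers, with 0 at the first gene of the run; orange bars were called higher, blue lower and grey not called, and gaps are genes not tested. In the upper panel the 6 genes of the homogentisate run lie between -10.23 and -4.73 and in the lower panel the 11 genes of the longest run between -7.91 and -2.41.

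The longest run had 11 genes (contig 17, 4375377 to 4408581), with a summed level of 1912 CPM in MA234.1 and 69.1 CPM in ΔaslA, and overlaps cluster 74 of the deposited annotation. It holds PaDC2, named from a terpene cyclase of another fungus (99.1 ± 1.78 against 0.911 ± 0.654 CPM), and CYP503A1, named from a gibberellin-type oxidase of Gibberella (192 ± 4.62 against 0.862 ± 0.654 CPM). It also holds the laccase gene lcc2 (145 ± 3.32 against 3.79 ± 0.336 CPM) and gst2 (538 ± 15.6 against 18.8 ± 3.1 CPM). A run of 7 on contig 6 (1101967 to 1112915) joins DHG2, closest to an L-rhamnose dehydrogenase of the yeast Scheffersomyces (22.3 ± 2.4 against 0.127 ± 0.162 CPM), with gnl, a gluconolactonase gene (64.8 ± 0.864 against 1.72 ± 0.194 CPM). The run also takes in the aldolase gene ATCC64974_42530 and the transporter gene STL1 (ATCC64974_42500). In a run of 7 on contig 16 (1756412 to 1769046) 6 genes have no protein name; 1 of them, ATCC64974_92480, fell from 674 ± 50.8 to 10.9 ± 0.745 CPM. bcpA, in a run of 5 on contig 10 and closest to a carboxyphosphonate phosphorylmutase of Streptomyces, had 1579.8, 1461 and 1491 CPM in MA234.1 and 1.81, 3.5 and 0.532 CPM in ΔaslA (log2 change -9.50 with SE 0.44, adjusted p = 4.5e-07 by edgeR).

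Some transcripts were not detected in ΔaslA at this depth. No read was counted in any ΔaslA library for 20 tested genes, while 0 tested genes had no count in all MA234.1 libraries. By counts in MA234.1 the first of these was ATCC64974_99170 (contig 17, 1062152 to 1062725), a predicted small secreted protein with an HsbA Pfam domain. It stood at 209, 189 and 193 CPM in MA234.1 and 0 in ΔaslA, at least 3048-fold lower against a floor of 3 counts over the 3 libraries. kduD (ATCC64974_78720) and ugl, named from bacterial enzymes that act on uronic acid sugars, had 97.1, 88.6 and 87.9 CPM and 19, 15.7 and 18.2 CPM in MA234.1. They were at least 1411-fold and at least 273-fold lower, and ATCC64974_9510, with no protein name, had 32.7, 28.8 and 27.4 CPM and was at least 458-fold lower. Close by in identifier order, ATCC64974_9530, a predicted small secreted protein, fell from 125 ± 3.4 to 0.0976 ± 0.11 CPM. Floors and counting intervals cover counting error only.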

How the data were processed

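RNA was measured in 6 libraries, 3 of MA234.1 and 3 of ΔaslA, sequenced as paired reads of 50 bases. Per the submitters' processing notes the authors used HISAT2 2.2.1, Subread with featureCounts, and Cuffdiff. The sources used here do not state the strand setting, genome build or annotation version, so reads of a gene and of an overlapping or antisense partner, or of near-identical copies, cannot be told apart. The deposited table gives raw read counts per gene and library, and the authors' FPKM values per strain, used only for ranks and levels between genes. Gene names are those of the closest SwissProt protein in the deposited annotation (8074 of 11187 genes), often from another species. Coordinates are the deposited ones.

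Counts were filtered with filterByExpr (9382 genes kept), scaled by TMM and fitted with edgeR 4.0.16 (quasi-likelihood F test, R 4.3.3) on these 6 libraries, without covariates, with Benjamini-Hochberg adjustment over all genes tested at a threshold of 0.05. CPM values are TMM-scaled. The step was tested on simulated counts for this comparison. Of 9303 genes, 97 were changed 4-fold and 96 were changed 16-fold, in both directions. Of these, 97.9% and 100% were recovered, with 9 false calls. Far more genes were called in the real libraries, and no simulated library was made to stand apart. The simulation therefore cannot tell how the step performs when most genes change. Totals of 11321882 to 19110786 counts put a floor of 3 counts at 0.155 to 0.270 CPM per library. The labels call the replicates biological triplicates. A chi-square test of counts found no pair within sampling noise. Chi-square per degree of freedom was 2.46 between ΔaslA replicates 1 and 3. It was 92.1 and 91.1 between ΔaslA replicate 2 and replicates 1 and 3. In MA234.1 it was 2.35 to 5.53. How independent ΔaslA replicates 1 and 3 are was not tested, while the fit counts all 3 libraries as independent. For a single value, 3 against 3 libraries allow an exact permutation p of 0.1 at best, so single-gene p-values come from the fit across all genes.

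Genes were named by rule: the 10 largest called gains and 10 largest losses in CPM, up to 3 called members per list by fold with at least 5 CPM and no overlap, the 4 genes at 0 in a strain with the most CPM in the other, 6 genes averaging at least 500 CPM with the smallest fold, all tested conidiation, carbon, nitrogen and pH, and G protein regulators, 4 genes without a protein name in each direction, and members of the runs of neighbours. Named after their values were seen were catR, fasA, FAS1, cut6, icdA, IDH1, idh2, leu2A, Glis3, ATCC64974_87970, PUT3, glkA, hxkA, pfkA, FBP1, mclA, bipA, pdiA, hsp90, KHT2, niiA, niaD, amyS, lxr3, ATCC64974_67810, gpdA, NRPS4, SPAPB24D3.06c, amy3 (ATCC64974_26800) and the 3 hxkA genes that fell. The members and lists were chosen with earlier results of these data known. Lists match symbols or protein names and take in some genes outside their theme. Alternatives were other scalings and filters, DESeq2 1.42.0, limma-voom 3.58.1, a test of a fold above 2, a replicate term, all 9 libraries, and each library left out. The authors' fold and significance columns were not used.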

Additional observations from a re-analysis of the deposited data

How the results depend on the processing

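Besides the main edgeR result, 15 alternatives were run: 2 other scalings, 2 other filters, DESeq2, limma-voom, a test of a fold above 2, a replicate term, all 9 libraries, and 6 fits that each left out 1 library. No called gene took the opposite direction among the genes called in both fits. The test of a fold above 2 called 3170 genes, 1314 higher and 1856 lower, so that 41.5% of calls were higher against 49.7% in the main fit. The other planned settings gave 6473 (DESeq2 size factors in edgeR), 6489 (total counts), 6590 (no filter), 5744 (stricter filter), 6564 (DESeq2), 6492 (limma-voom) and 4657 calls (all 9 libraries). Leaving out 1 library gave 5716 to 7366 calls, 2801 to 3669 higher and 2913 to 3697 lower. The replicate numbers did not pair the samples: deviations from the group means correlated at -0.044, -0.038 and 0.043 between libraries with the same number, and the fit with a replicate block called 6157 genes, 3025 higher and 3132 lower.

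Of 42 lists, the balance of higher and lower members turned in 2. Ergosterol synthesis had 3 higher and 5 lower when a fold above 2 was tested, and the citric acid cycle had 8 to 12 members lower when 1 library was left out. The test of a fold above 2 moved the larger count of 19 lists by over 1.5 times. Counts of higher and lower members then went from 43 and 6 to 5 and 4 in the respiratory list, from 20 and 8 to 3 and 1 in the secretory list, from 22 and 4 to 3 and 0 in histones and replication, from 28 and 4 to 17 and 1 in chaperones and from 7 and 3 to 0 and 0 in the proteasome. Lower members went from 45 to 24 in peptidases, from 14 to 3 in autophagy, from 35 to 22 in amino acid transporters, from 20 to 13 in peroxisome assembly and from 15 to 6 in the carbon, nitrogen and pH regulators. With all 9 libraries 6 lists moved, with 19 higher and 5 lower in the respiratory list, 11 and 4 in the secretory list, 14 and 1 in histones and replication, 1 and 0 in the proteasome, 1 and 7 in autophagy and 6 and 6 in ergosterol synthesis. Under the stricter filter 8 incompatibility genes were lower. For the 171 genes named here, 2525 of 2564 recomputed values kept their direction and their side of the threshold, 37 were no longer called, 22 of them under the test of a fold above 2, and 2 became called. The causes were not tested. Counts under the floor of 3 limit values under 0.270 CPM in a single library.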

Other observations

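Against the general fall of secondary metabolism, cluster 57 of the deposited annotation, a nonribosomal peptide cluster on contig 14 (720947 to 764379), had 11 of 15 tested genes higher and 1 lower, with a median log2 fold change of 1.41 and a summed level of 436 CPM in MA234.1 and 725 CPM in ΔaslA. Its synthetase gene, closest to NRPS4 of Aspergillus fumigatus (Neosartorya fumigata), had 6.48, 7.91 and 6.78 CPM in MA234.1 and 35.8, 30.5 and 33.6 CPM in ΔaslA (log2 change 2.24 with SE 0.16, adjusted p = 4.52e-06 by edgeR). The gene beside it, ATCC64974_84890, closest to the fission yeast gene SPAPB24D3.06c, had 11.8, 7.32 and 5.88 CPM and 63.8, 117 and 67.0 CPM (log2 change 3.32 with SE 0.33, adjusted p = 3.83e-05 by edgeR). Neither gene overlapped between strains. Cluster 57 was singled out after its values were seen.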
